A study of Mus musculus with 10 samples.

Results

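The TGF-beta receptor and Smad genes comprised 9 genes: the ligand gene Tgfb1, the receptor genes Tgfbr1 and Tgfbr2, the signal transducer genes Smad2, Smad3 and Smad4, and the inhibitor genes Smad7, Ski and Skil. They were chosen by name, and their peaks were all peaks in the body of the gene or within 10 kb of it. This gave 116 of the 97385 peaks in the count table, and all 116 passed the filter on low counts. Chromatin accessibility was measured by ATAC-seq, in which the Tn5 transposase inserts adaptors into open DNA, in regulatory T (Treg) cells that were sorted as CD4+Foxp3-YFP+TCRb+ cells from 10-day-old mice. Vps34-deficient cells came from Foxp3CrePik3c3fl/fl mice, in which a Cre recombinase expressed with Foxp3 deletes Pik3c3, the gene of the lipid kinase Vps34. Control cells came from Foxp3Cre mice with 2 intact Pik3c3 copies or with 1 floxed copy, so the Cre was present in every group. There were 2 libraries of control and 4 of Vps34-deficient cells from spleen, and 2 of each from lung. They are named by group and by the number in the labels (lung control 2), and the labels do not say whether libraries of a group came from separate mice, so p-values measure the spread between these libraries. The questions were whether accessibility of these genes differed with genotype in each tissue and between lung and spleen.

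TGF-beta is a cytokine that is stored in a latent form and acts through a pair of receptor kinases. The type II receptor, encoded by Tgfbr2, binds the ligand and activates the type I receptor, encoded by Tgfbr1, which phosphorylates Smad2 and Smad3. These join Smad4 and bind DNA with other factors, while Smad7 blocks the receptor, and Ski and SnoN, encoded by Skil, repress Smad target genes. In T cells the pathway is known for inducing Foxp3 and for restraining activation.

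Total counts per library ranged from 9405823 to 22439699. Accessibility is given per library as CPM, the count scaled to a fixed library total, and log2 fold changes and adjusted p-values are from the edgeR quasi-likelihood test over 97109 peaks, with Vps34-deficient set against control or lung against spleen. A peak was called where the adjusted p was below 0.05 and the log2 fold change was above 0.5 in size. Promoter peaks were present for 6 of 6 Treg and CD4 T cell markers, with Foxp3 among them, and their summed level was 156 to 213 CPM. Of the markers of other cells, the B cell gene Pax5 (11.9 to 17.7 CPM), 2 of 5 myeloid genes, 2 of 4 CD8 and NK cell genes and 4 of 5 lung epithelial and endothelial genes had a promoter peak, while Lyz2, Csf1r, Ncr1 and Sftpc had none. The lung groups were apart for 2 of these lists. Summed myeloid marker accessibility (Itgam and Cd14) was 10.2 to 10.7 CPM in lung control and 6.35 to 6.82 CPM in lung Vps34-deficient cells. Most of it was Cd14 (8.51 and 9.31 against 5.52 and 5.72 CPM), which lies on chromosome 18 with Pik3c3, while Itgam was at 1.70 and 1.41 against 1.30 and 0.635 CPM. The sum of the CD8 genes Cd8a and Cd8b1 was 7.76 to 10.6 and 13.2 to 14.6 CPM, while neither NK cell gene had a promoter peak. Cd8b1 alone was at 9.14 and 6.35 CPM in lung control and 11.7 and 10.4 CPM in lung Vps34-deficient cells, and Cd8a overlapped (1.49 and 1.41 against 1.46 and 4.23 CPM). Their part in the lung results was not tested. In sorted bulk cells, fewer cells of a type and less open chromatin per cell cannot be told apart.

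Loss of Vps34 went with lower accessibility at Smad3 in lung Treg cells, and few other peaks of the pathway were called. In lung, 8 of the 116 peaks (6.90%) were called lower, against 3.74% of all tested peaks, and 6 of these 8 were at Smad3. A further 4 (3.45%) were called higher, against 1.22% of all tested peaks: 2 at Tgfbr2, 1 at Smad4 and 1 at Ski. In spleen, 1 peak was called lower (0.862%, against 1.02% of all tested peaks), at Smad3, and 1 was called higher (0.862%, against 0.441%), at Tgfbr2. Without the 27 Smad3 peaks, 2 of 89 were lower and 4 were higher in lung. The median log2 fold change of the 116 peaks was -0.06 in lung and 0.08 in spleen, beside 0.022 and 0.053 over all tested peaks, and Smad3 had a median of -0.59 in lung and -0.02 in spleen. No peak of Tgfb1, Tgfbr1, Smad2 or Skil was called for genotype in either tissue. The lung count of 12 became 3 on leaving out lung control 2, 18 on leaving out lung control 1, 7 on leaving out lung Vps34-deficient 1 and 8 on leaving out lung Vps34-deficient 2. In a fit of only the 2 lung groups 5 were called, all lower. The 2 lung control libraries agreed least of all pairs within a group. The spleen count of 2 became 0 when either spleen control library was left out, and 1 when any one of the spleen Vps34-deficient libraries was.

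**Figure D1:**
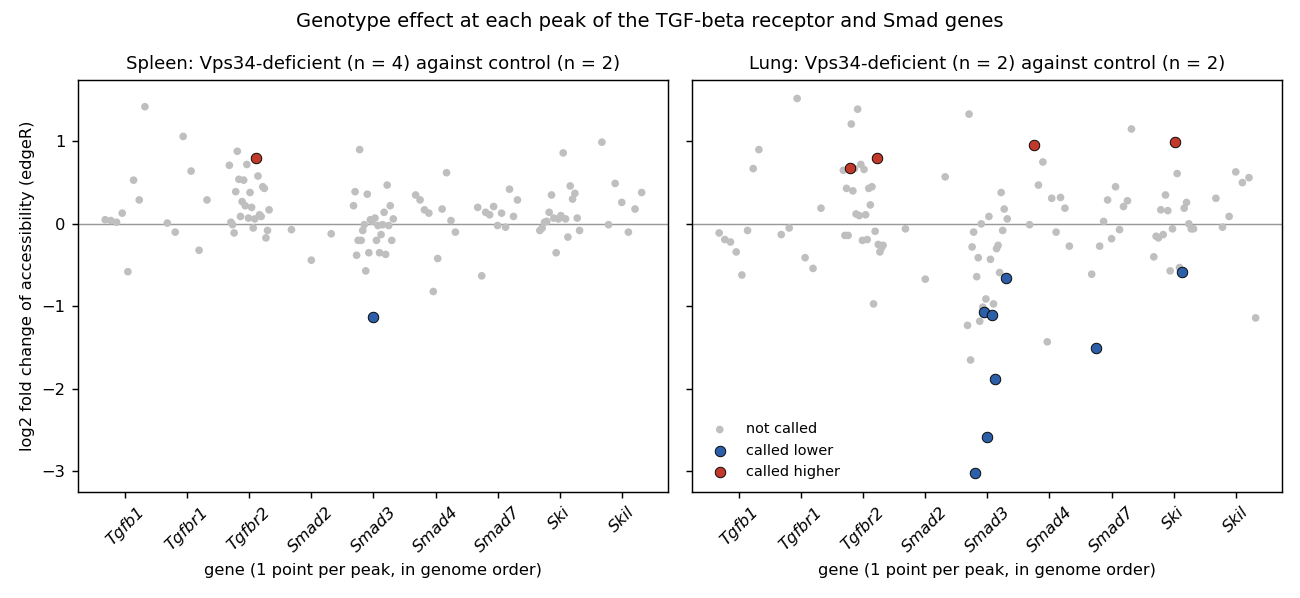
Log2 fold change (edgeR) of Vps34-deficient against control Treg cells for each of the 116 peaks, grouped by gene, in spleen (left) and lung (right). Blue points were called lower, red points higher and grey points were not called. The 6 blue points at Smad3 in lung reach a log2 fold change of -3.02, while other genes have at most 2 called peaks in a tissue.

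The ligand gene Tgfb1 (chr7:25687002-25705077, GRCm38, plus strand) had 8 peaks. All 8, the promoter peak included, also lie in or within 10 kb of a neighbour (B9d2, Tmem91, Exosc5, Ccdc97 or Hnrnpul1), so no value given for Tgfb1 can be assigned to that gene alone. Its promoter peak over the first untranslated exon (chr7:25686715-25687606) had 33.4 and 39.7 CPM in spleen control, 35.3, 34.4, 42.4 and 36.0 CPM in spleen Vps34-deficient, 33.0 and 36.5 CPM in lung control and 32.0 and 28.6 CPM in lung Vps34-deficient libraries. Both lung Vps34-deficient values lay below every other library, and the genotype effect was not called in lung (log2 fold change -0.22 ± 0.14 SE, adjusted p = 0.382) or spleen (log2 fold change 0.02 ± 0.12 SE, adjusted p = 0.959). The intronic peak with the smallest p in lung (chr7:25688784-25689974) was at 31.7 and 50.7 CPM in lung control and 33.7 and 32.8 CPM in lung Vps34-deficient cells, so the groups overlapped (log2 fold change -0.34 ± 0.16 SE, adjusted p = 0.218), and it passed the threshold only on leaving out lung control 1 (-0.53). The largest spleen difference, at a peak downstream of the gene and near Ccdc97 and Hnrnpul1 (chr7:25713059-25713268), was highest in spleen Vps34-deficient 1. Its level was 0.891 and 0.689 CPM in spleen control and 4.31, 1.47, 1.13 and 1.87 CPM in spleen Vps34-deficient cells, which did not pass the test (log2 fold change 1.42 ± 0.48 SE, adjusted p = 0.141).

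The type I receptor gene Tgfbr1 (chr4:47353222-47414931, plus strand) had 6 peaks and showed little difference between groups. Its promoter peak (chr4:47352828-47353732) had 76.2 and 85.0 CPM in spleen control, 74.1, 73.5, 77.3 and 74.7 CPM in spleen Vps34-deficient, 70.4 and 77.7 CPM in lung control and 78.5 and 66.4 CPM in lung Vps34-deficient cells. These values overlapped within each tissue, with a log2 fold change of -0.10 ± 0.088 SE (spleen) and -0.05 ± 0.10 SE (lung). A small intronic peak (chr4:47359133-47359393) had the smallest p of the gene in both tissues. It was at 0.638 and 0.282 CPM in lung control and 1.30 and 1.27 CPM in lung Vps34-deficient cells, and at 0.713 and 1.10 against 2.50, 1.47, 2.08 and 1.44 CPM in spleen. Every Vps34-deficient library lay above both controls of its tissue, but neither effect was called (adjusted p = 0.288 in spleen and 0.184 in lung). In lung it rested on 5 and 14 fragments, counting read ends in pairs, a ratio of 3.03 with an exact 95% counting interval of 1.03 to 10.8.

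The type II receptor gene Tgfbr2 (chr9:116084293-116175360, minus strand) had 26 peaks, and the 3 that were called for genotype were all higher without Vps34. None of them was at the promoter. The promoter peak (chr9:116175744-116176231) had 38.15 and 39.3 CPM in spleen control, 33.5, 38.10, 36.2 and 38.0 CPM in spleen Vps34-deficient, 39.2 and 40.1 CPM in lung control and 36.9 and 29.0 CPM in lung Vps34-deficient cells. Every Vps34-deficient library lay below both controls of its tissue there, but neither genotype effect was called (log2 fold change -0.08 ± 0.11 SE in spleen, -0.29 ± 0.13 SE in lung). Of the 26 peaks, 10 (38.5%) had a negative log2 fold change in lung, against 48.2% of all tested peaks. The lowest was -0.97 (adjusted p = 0.0625).

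The Tgfbr2 peak with the smallest p in lung lay in an intron 83.9 kb from the start of the gene (chr9:116091027-116091794). It had 17.2 and 16.6 CPM in lung control and 31.7 and 23.1 CPM in lung Vps34-deficient cells, with no overlap (log2 fold change 0.68 ± 0.16 SE, adjusted p = 0.0125). In spleen it had 21.9 and 22.6 CPM in control and 29.8, 27.6, 28.2 and 30.6 CPM in Vps34-deficient cells, again with no overlap, but the effect was not called (log2 fold change 0.39 ± 0.13 SE, adjusted p = 0.151). The 300 bases at the centre of this peak are shown because no other peak of the receptor genes had a smaller p in lung, and they hold none of the 6 motifs searched:
Tgfbr2 intron, chr9:116091261-116091560, GRCm38.p6, plus strand: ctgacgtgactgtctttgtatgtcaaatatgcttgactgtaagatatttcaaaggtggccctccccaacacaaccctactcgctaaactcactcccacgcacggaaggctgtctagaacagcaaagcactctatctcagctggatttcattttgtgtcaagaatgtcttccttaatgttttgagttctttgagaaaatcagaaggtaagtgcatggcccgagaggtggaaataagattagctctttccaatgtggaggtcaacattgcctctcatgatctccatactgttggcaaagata
The lung call was lost on leaving out lung control 2 (0.70) or lung Vps34-deficient 1 (0.50) and in a fit of only the 2 groups compared (0.67).

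A second intronic Tgfbr2 peak (chr9:116163874-116164312), 11.3 kb into the gene, was called higher in lung (log2 fold change 0.80 ± 0.23 SE, adjusted p = 0.0456). It had 9.78 and 10.0 CPM in lung control and 18.2 and 16.7 CPM in lung Vps34-deficient cells. Spleen libraries had 6.15 and 6.27 CPM in control and 5.84, 8.20, 9.21 and 10.6 CPM in Vps34-deficient cells, so both lung Vps34-deficient libraries lay above all others. This call was lost on leaving out spleen control 1 (0.83), spleen Vps34-deficient 2 (0.79), spleen Vps34-deficient 3 (0.79), lung control 2 (0.86), lung Vps34-deficient 1 (0.81) or lung Vps34-deficient 2 (0.93) and in a fit of only the 2 groups compared (0.79). The peak called higher in spleen lay 22.1 kb into the gene (chr9:116152778-116153688). It had 6.86 and 6.34 CPM in spleen control and 10.0, 10.0, 12.1 and 13.8 CPM in spleen Vps34-deficient cells, so all 4 Vps34-deficient libraries lay above both controls (log2 fold change 0.80 ± 0.20 SE, adjusted p = 0.0369). In lung it had 8.51 and 8.75 CPM in control and 11.5 and 8.89 CPM in Vps34-deficient cells (log2 fold change 0.23 ± 0.23 SE, adjusted p = 0.617). The spleen call was lost without any one of the 6 spleen libraries, with log2 fold changes of 0.70 to 0.82.

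Smad2 (chr18:76241580-76310963, plus strand), one of the receptor-activated Smad genes, had 3 peaks and no called effect. Its promoter peak (chr18:76241072-76242516) had 145 and 131 CPM in spleen control, 136, 134, 134 and 123 CPM in spleen Vps34-deficient, 109.7 and 125 CPM in lung control and 111 and 118 CPM in lung Vps34-deficient cells. The groups overlapped in each tissue, and the log2 fold change was -0.07 ± 0.075 SE (spleen) and -0.06 ± 0.088 SE (lung). The intronic peaks with the smallest p for genotype were chr18:76246967-76247184 in spleen (log2 fold change -0.44, adjusted p = 0.598) and chr18:76259621-76260070 in lung (0.57, adjusted p = 0.205). The lung difference at the latter passed the threshold only on leaving out lung control 1 (0.97).

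Smad3 (chr9:63646767-63757994, minus strand), the other receptor-activated Smad gene, had 27 peaks, of which 6 were called lower in lung Vps34-deficient cells and none higher. Of the 27 peaks, 21 (77.8%) had a negative log2 fold change in lung, against 48.2% of all tested peaks, and 14 (51.9%) had an unadjusted p below 0.05, against 20.3%. In spleen 16 of the 27 (59.3%) were negative, against 43.5% of all tested peaks, and 2 (7.41%) had an unadjusted p below 0.05, which is fewer than the 14.3% of all tested peaks, while 1 was called. The 6 lung peaks were the promoter peak and 5 intronic peaks between 25.1 and 67.3 kb into the gene. At each of the 6, both lung Vps34-deficient libraries lay below both lung controls. The 6 were called on these same values, so this adds no support to the calls.

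The peak with the smallest p was intronic, 38.9 kb into the gene (chr9:63718880-63719265), which was also the one Smad3 peak called in spleen. It had 17.2 and 20.3 CPM in lung control and 4.22 and 2.01 CPM in lung Vps34-deficient cells, a mean of 16.6% of control (log2 fold change -2.58 ± 0.31 SE, adjusted p = 1.82e-05). In spleen it had 6.59 and 7.23 CPM in control and 2.02, 3.18, 3.43 and 3.88 CPM in Vps34-deficient cells, a mean of 45.2% of control with all 4 libraries below both controls (log2 fold change -1.13 ± 0.25 SE, adjusted p = 0.0172). The lung call held in each of the 17 alternatives run, with log2 fold changes of -3.17 to -2.1. In 4 of these a lung group was left with 1 library, and the spread was then taken from the other groups. The spleen call was lost on leaving out spleen control 1 (-1.26) or spleen control 2 (-1.10). A peak 25.1 kb into the gene (chr9:63732725-63733074) had 9.57 and 15.5 CPM in lung control and 3.41 and 3.60 CPM in lung Vps34-deficient cells (log2 fold change -1.88 ± 0.28 SE, adjusted p = 0.000271), and its lung call also held in all 17 alternatives. Its spleen values were 4.37 and 5.51 CPM in control and 4.03, 4.46, 5.14 and 4.24 CPM in Vps34-deficient cells, which overlapped (log2 fold change -0.13 ± 0.24 SE, adjusted p = 0.876).

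The third intronic peak lay 36.2 kb into the gene (chr9:63721569-63722070). It had 26.1 and 34.1 CPM in lung control and 17.2 and 11.0 CPM in lung Vps34-deficient cells (log2 fold change -1.11 ± 0.21 SE, adjusted p = 0.00267), and 15.6 and 15.4 CPM in spleen control and 13.1, 13.9, 14.7 and 19.5 CPM in spleen Vps34-deficient cells. The lung call was lost on leaving out lung control 2 (-0.86) or lung Vps34-deficient 2 (-0.76). The central 300 bases of these 3 Smad3 peaks, which had the smallest p of the gene, are given with motif matches in capitals:
Smad3 intron, 38.9 kb, chr9:63718923-63719222, GRCm38.p6, plus strand: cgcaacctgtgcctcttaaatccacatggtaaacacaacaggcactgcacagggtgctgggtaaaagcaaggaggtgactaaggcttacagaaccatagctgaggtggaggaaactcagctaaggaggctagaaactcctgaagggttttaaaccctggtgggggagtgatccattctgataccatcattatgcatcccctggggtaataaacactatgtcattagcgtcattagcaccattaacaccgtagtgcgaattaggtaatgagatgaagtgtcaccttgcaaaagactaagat
Smad3 intron, 25.1 kb, chr9:63732750-63733049, GRCm38.p6, plus strand: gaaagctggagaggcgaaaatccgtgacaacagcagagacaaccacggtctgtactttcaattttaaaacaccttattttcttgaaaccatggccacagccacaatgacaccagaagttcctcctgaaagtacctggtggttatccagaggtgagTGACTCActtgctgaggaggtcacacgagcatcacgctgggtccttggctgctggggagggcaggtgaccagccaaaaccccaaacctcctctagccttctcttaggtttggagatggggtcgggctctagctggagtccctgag
Smad3 intron, 36.2 kb, chr9:63721670-63721969, GRCm38.p6, plus strand: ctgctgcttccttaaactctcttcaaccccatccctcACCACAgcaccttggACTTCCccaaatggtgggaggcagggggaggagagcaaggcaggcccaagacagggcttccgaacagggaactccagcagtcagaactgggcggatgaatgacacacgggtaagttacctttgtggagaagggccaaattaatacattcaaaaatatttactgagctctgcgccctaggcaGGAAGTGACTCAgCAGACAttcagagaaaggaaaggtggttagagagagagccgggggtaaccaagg
The capitals mark matches on either strand to the Smad motifs GTCTAGAC, CAGACA and GGCGCC, the AP-1 motif TGANTCA, the Runx motif TGTGGT and the Ets motif GGAAGT. The first sequence has none of them. The second has 1 AP-1 match, and the third has 1 AP-1, 1 CAGACA, 1 Runx and 2 Ets matches, of which an Ets and the AP-1 match overlap.

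A peak 41.7 kb into the gene (chr9:63716170-63716485) had 8.93 and 13.5 CPM in lung control and 4.79 and 6.24 CPM in lung Vps34-deficient cells (log2 fold change -1.07 ± 0.26 SE, adjusted p = 0.0153). The call was lost on leaving out lung control 2 (-0.68) or lung Vps34-deficient 1 (-0.80) and in a fit of only the 2 groups compared (-1.06). The least accessible of the 6 peaks, 67.3 kb into the gene (chr9:63690583-63690846), had 1.28 and 3.10 CPM in lung control and 0.325 and 0.212 CPM in lung Vps34-deficient cells (log2 fold change -3.02 ± 0.75 SE, adjusted p = 0.0183). It rested on 28 fragments in control and 3 in Vps34-deficient cells, a ratio of 0.116 with an exact 95% counting interval of 0.0226 to 0.376. The call was lost on leaving out lung control 2 (-2.16), lung Vps34-deficient 1 (-3.31) or lung Vps34-deficient 2 (-2.70). The promoter peak (chr9:63757813-63758643) had 28.1 and 34.6 CPM in lung control and 22.6 and 17.8 CPM in lung Vps34-deficient cells (log2 fold change -0.66 ± 0.16 SE, adjusted p = 0.0183). Its spleen values of 24.0 and 27.0 CPM in control and 20.0, 22.9, 24.3 and 21.5 CPM in Vps34-deficient cells overlapped (log2 fold change -0.20 ± 0.14 SE, adjusted p = 0.565). The lung promoter call was lost on leaving out lung control 2 (-0.45) or lung Vps34-deficient 2 (-0.42) and in a fit of only the 2 groups compared (-0.66). Smad3 was the only gene of the 9 whose promoter peak was called for genotype.

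**Figure D2:**
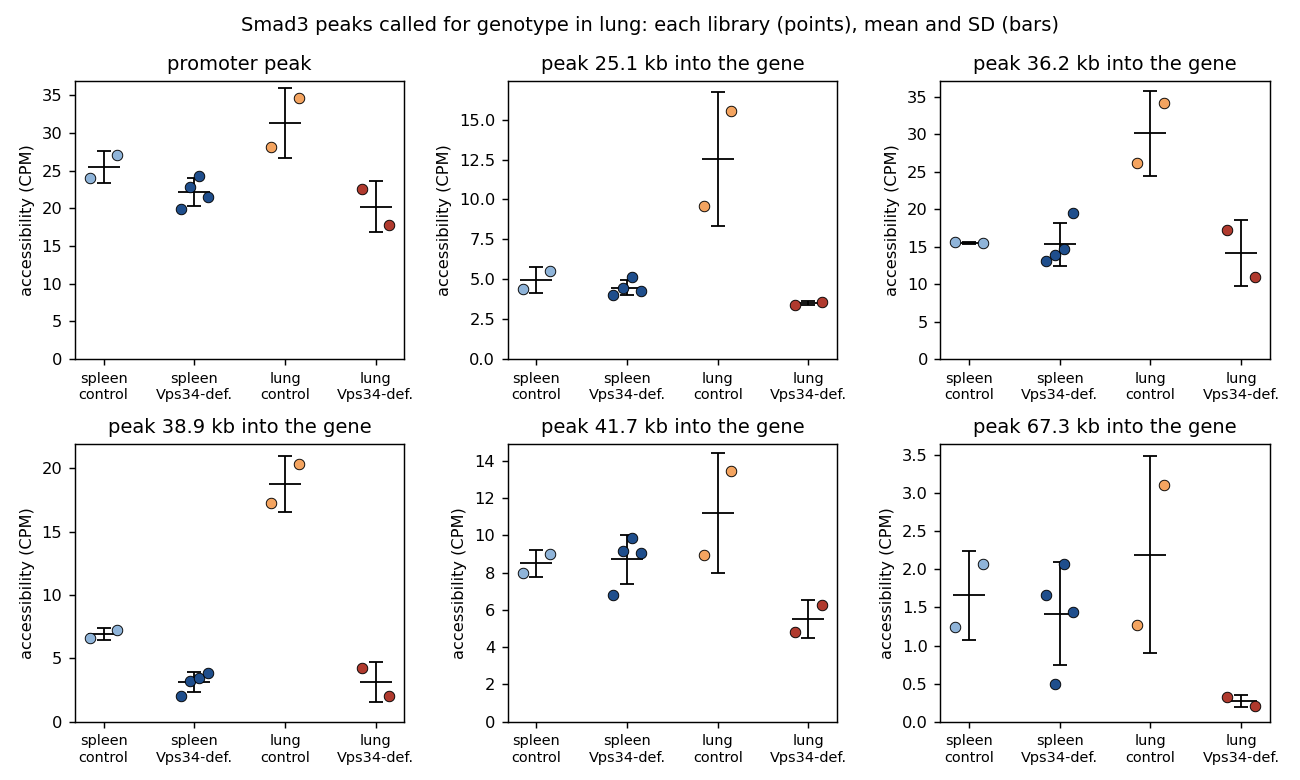
Accessibility (CPM) of the 6 Smad3 peaks called lower in lung Vps34-deficient Treg cells, in each of the 10 libraries (points) with group mean and SD (bars). Lung controls sit above both lung Vps34-deficient libraries in all panels, and at the peak 38.9 kb into the gene the spleen Vps34-deficient libraries sit below both spleen controls as well.

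Smad4 (chr18:73639009-73703780, minus strand), the shared partner of Smad2 and Smad3, had 10 peaks, of which 1 was called higher in lung. This intronic peak, 60.5 kb into the gene (chr18:73642976-73643525), had 8.93 and 8.89 CPM in lung control and 17.5 and 17.6 CPM in lung Vps34-deficient cells (log2 fold change 0.96 ± 0.21 SE, adjusted p = 0.00797). In spleen it had 8.29 and 8.82 CPM in control and 9.46, 8.81, 11.0 and 12.5 CPM in Vps34-deficient cells (log2 fold change 0.29 ± 0.18 SE, adjusted p = 0.504). The call was lost on leaving out lung control 2 (0.99) and in a fit of only the 2 groups compared (0.95). The promoter peak (chr18:73702663-73704281) had 82.8 and 74.7 CPM in spleen control, 87.5, 76.8, 82.4 and 76.2 CPM in spleen Vps34-deficient, 65.1 and 65.6 CPM in lung control and 77.5 and 73.5 CPM in lung Vps34-deficient cells, with a log2 fold change of 0.04 ± 0.083 SE (spleen) and 0.19 ± 0.098 SE (lung). Smad2, Smad4 and Smad7 lie on the same chromosome as Pik3c3, so alleles linked to the floxed gene cannot be told apart from the effect of its loss there. On chromosome 18, 5.33% of tested peaks were called in lung, against 4.96% of all tested peaks, and 1.52% against 1.46% in spleen.

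Smad7 (chr18:75367529-75395935, plus strand), the inhibitory Smad gene, had 11 peaks, of which 1 was called lower in lung. It lay 3.6 kb upstream of the gene (chr18:75363827-75364095). It had 7.02 and 11.2 CPM in lung control and 2.27 and 4.45 CPM in lung Vps34-deficient cells (log2 fold change -1.50 ± 0.34 SE, adjusted p = 0.00856), and 4.81 and 4.82 CPM in spleen control and 2.78, 2.69, 2.89 and 4.16 CPM in spleen Vps34-deficient cells. All 4 spleen Vps34-deficient libraries were also below both controls, without a call (log2 fold change -0.63 ± 0.28 SE, adjusted p = 0.288). The lung call was lost on leaving out lung control 2 (-1.07) or lung Vps34-deficient 1 (-0.99) and in a fit of only the 2 groups compared (-1.49). The promoter peak (chr18:75367078-75367967) had 33.2 and 35.8 CPM in spleen control, 32.7, 42.9, 34.9 and 41.2 CPM in spleen Vps34-deficient, 38.9 and 39.1 CPM in lung control and 35.7 and 29.6 CPM in lung Vps34-deficient cells, and neither genotype effect was called (log2 fold change 0.14 in spleen and -0.27 in lung).

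Ski (chr4:155154075-155222592, minus strand), a corepressor of Smad target genes, had 18 peaks, of which 1 was called lower and 1 higher in lung. Its promoter peak (chr4:155222947-155223690) had 80.4 and 86.3 CPM in spleen control, 73.7, 82.3, 81.9 and 76.9 CPM in spleen Vps34-deficient, 77.2 and 72.8 CPM in lung control and 79.2 and 66.9 CPM in lung Vps34-deficient cells, with a log2 fold change of -0.08 ± 0.086 SE (spleen) and -0.06 ± 0.10 SE (lung).

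The lower Ski peak, 21.6 kb into the gene (chr4:155200598-155201460), was the most accessible of the peaks called for genotype. It had 90.6 and 96.5 CPM in lung control and 66.2 and 61.1 CPM in lung Vps34-deficient cells (log2 fold change -0.58 ± 0.10 SE, adjusted p = 0.00138). In spleen it had 68.5 and 72.6 CPM in control and 58.8, 64.6, 60.2 and 68.0 CPM in Vps34-deficient cells, all 4 below both controls, without a call (log2 fold change -0.16 ± 0.088 SE, adjusted p = 0.418). The lung call was lost on leaving out lung control 2 (-0.49) or lung Vps34-deficient 2 (-0.44). Its central 300 bases are shown because they hold 4 CAGACA and 4 GGAAGT matches, which are in capitals:
Ski intron, 21.6 kb, chr4:155200879-155201178, GRCm38.p6, plus strand: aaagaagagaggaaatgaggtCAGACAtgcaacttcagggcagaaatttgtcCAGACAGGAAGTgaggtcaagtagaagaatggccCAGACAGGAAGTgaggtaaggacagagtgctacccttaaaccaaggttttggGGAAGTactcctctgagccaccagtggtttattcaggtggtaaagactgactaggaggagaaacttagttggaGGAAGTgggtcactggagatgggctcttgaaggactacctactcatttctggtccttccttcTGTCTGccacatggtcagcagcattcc
The peak called higher, 27.2 kb into the gene (chr4:155195242-155195606), had 4.25 and 4.38 CPM in lung control and 10.4 and 6.88 CPM in lung Vps34-deficient cells (log2 fold change 0.99 ± 0.25 SE, adjusted p = 0.0205). Its spleen values of 8.82 and 9.23 CPM in control and 9.18, 9.66, 10.6 and 9.12 CPM in Vps34-deficient cells overlapped. This call was lost on leaving out lung control 2 (1.05) or lung Vps34-deficient 1 (0.72) and in a fit of only the 2 groups compared (0.98).

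Skil (chr3:31095058-31122577, plus strand), which encodes the related corepressor SnoN, had 7 peaks and no called genotype effect. Its promoter peak (chr3:31093658-31095250) was among the most accessible, with 145 and 147 CPM in spleen control, 137, 144, 144 and 154 CPM in spleen Vps34-deficient, 131 and 142 CPM in lung control and 136 and 133 CPM in lung Vps34-deficient cells. The genotype effect there was -0.01 ± 0.070 SE (spleen) and -0.04 ± 0.082 SE (lung) on the log2 scale. An upstream peak (chr3:31084922-31085318) had 2.41 and 2.89 CPM in spleen control and 6.82, 5.75, 4.69 and 3.59 CPM in spleen Vps34-deficient cells, with no overlap and an adjusted p of 0.0824 (log2 fold change 0.99), which passed the threshold in a fit of only the 2 groups compared (0.95). In lung the smallest p was at an intronic peak (chr3:31108981-31109482), with 9.57 and 9.17 CPM in control and 15.9 and 12.1 CPM in Vps34-deficient cells (log2 fold change 0.56, adjusted p = 0.112), which passed on leaving out lung Vps34-deficient 2 (0.82).

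Counts of all peaks of a gene were summed to give 1 effect per gene, called at an adjusted p below 0.05 among 17652 genes. In lung, Smad3 was called lower and Smad4 higher, 2 of the 9 genes, while 2.26% of all genes were called lower and 1.23% higher. Smad3 had a summed level of 320.4 and 390.4 CPM in lung control and 254 and 234 CPM in lung Vps34-deficient cells, and 277 and 288 against 233, 269, 286 and 286 CPM in spleen (log2 fold change -0.51 ± 0.094 SE, adjusted p = 0.00912 in lung and log2 fold change -0.06 ± 0.080 SE, adjusted p = 0.887 in spleen). Smad4 had 92.7 and 92.6 CPM in lung control and 118 and 114 CPM in lung Vps34-deficient cells (log2 fold change 0.36 ± 0.079 SE, adjusted p = 0.0201). The Smad3 call was lost on leaving out lung control 2 (-0.38), lung Vps34-deficient 1 (-0.55) or lung Vps34-deficient 2 (-0.45) and in a fit of only the 2 groups compared (-0.51). The Smad4 call was lost on leaving out lung control 2 (0.34), lung Vps34-deficient 1 (0.35) or lung Vps34-deficient 2 (0.39) and in a fit of only the 2 groups compared (0.36). The other 7 genes had lung log2 fold changes from -0.11 (Tgfb1) to 0.13 (Tgfbr2). In spleen none of the 9 was called, where 0.181% of all genes were lower and 0.0397% higher, and the log2 fold changes ran from -0.07 (Smad2) to 0.19 (Tgfbr2). With unequal numbers of peaks, levels were compared between genes per kilobase of peak: Smad2 (64.9 CPM per kb) and Skil (51.2) were highest, and Smad4 (21.2) and Tgfbr2 (20.3) lowest.

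**Figure D3:**
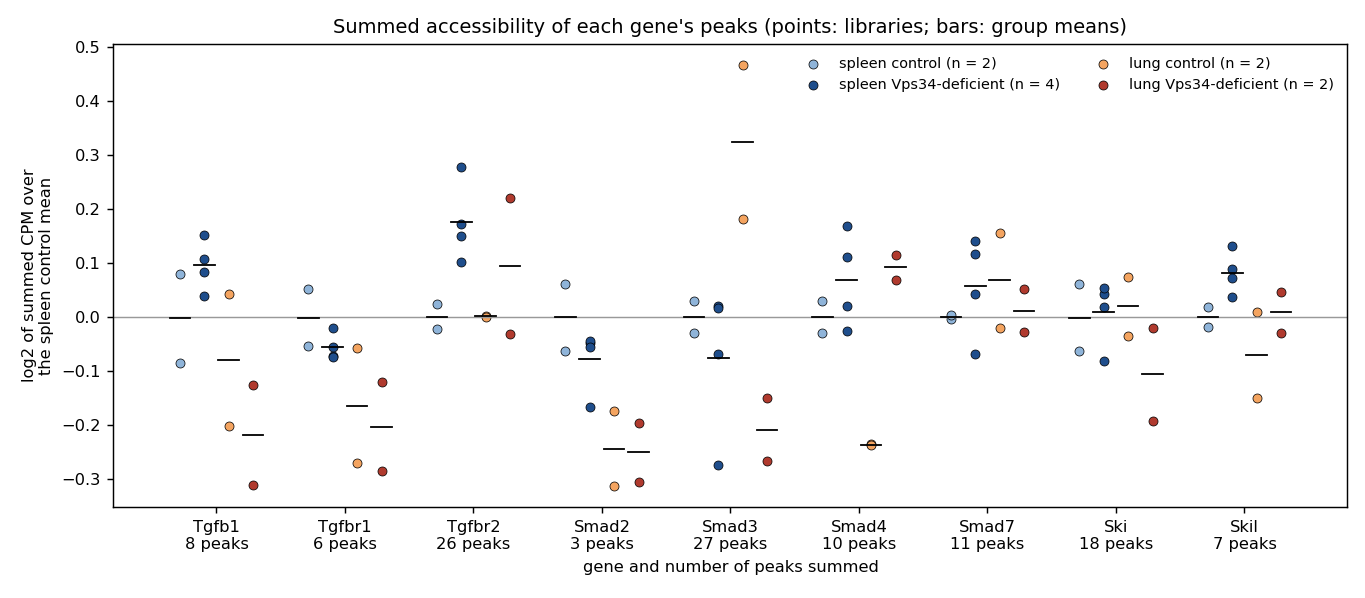
Summed accessibility of the peaks of each gene in each library, as log2 of the CPM over the spleen control mean, with group means as bars. Smad3 in lung control is the highest group and Smad3 in lung Vps34-deficient cells falls below the spleen control mean; for Smad4 both lung controls lie below both lung Vps34-deficient libraries.

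Between tissues, 13 of the 116 peaks (11.2%) were called higher and 4 (3.45%) lower in lung than in spleen control cells, against 11.8% and 3.53% of all tested peaks. With library size alone for scaling, the split was 10 higher and 6 lower. The shares of all tested peaks above belong to the main fit, so this split has none to be set against. Smad3 held 6 of the 13 higher peaks, Tgfbr2 4, and Tgfb1, Smad7 and Ski 1 each. In Vps34-deficient cells 8 (6.90%) were higher and 10 (8.62%) lower in lung, against 12.5% and 4.72% of all tested peaks. There Smad3 held 1 of the 8 higher and 4 of the 10 lower peaks. At the Smad3 peak 38.9 kb into the gene the tissue effect was 1.52 ± 0.27 SE in control cells (adjusted p = 0.000504) and 0.08 ± 0.29 SE in Vps34-deficient cells (adjusted p = 0.89). The peaks at 25.1 and 36.2 kb were also higher in lung in control cells (log2 fold changes 1.44 and 1.04), and had values of -0.31 and -0.05 in Vps34-deficient cells. The summed Smad3 peaks were called higher in lung in control cells (log2 fold change 0.39 ± 0.093 SE, adjusted p = 0.0124), where 9.27% of all genes were called higher and 5.18% lower, but had -0.06 ± 0.081 SE in Vps34-deficient cells. That call was lost on leaving out spleen control 1 (0.36), spleen control 2 (0.41) or lung control 2 (0.27). The lung genotype effect and the tissue effect in control cells use the same lung control libraries, so they are given side by side and are not independent. The count of 17 in control cells became 4 on leaving out spleen control 1 and 10 on leaving out spleen control 2. That of 18 in Vps34-deficient cells became 6 on leaving out lung Vps34-deficient 1 and 10 on leaving out lung Vps34-deficient 2.

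**Figure D4:**
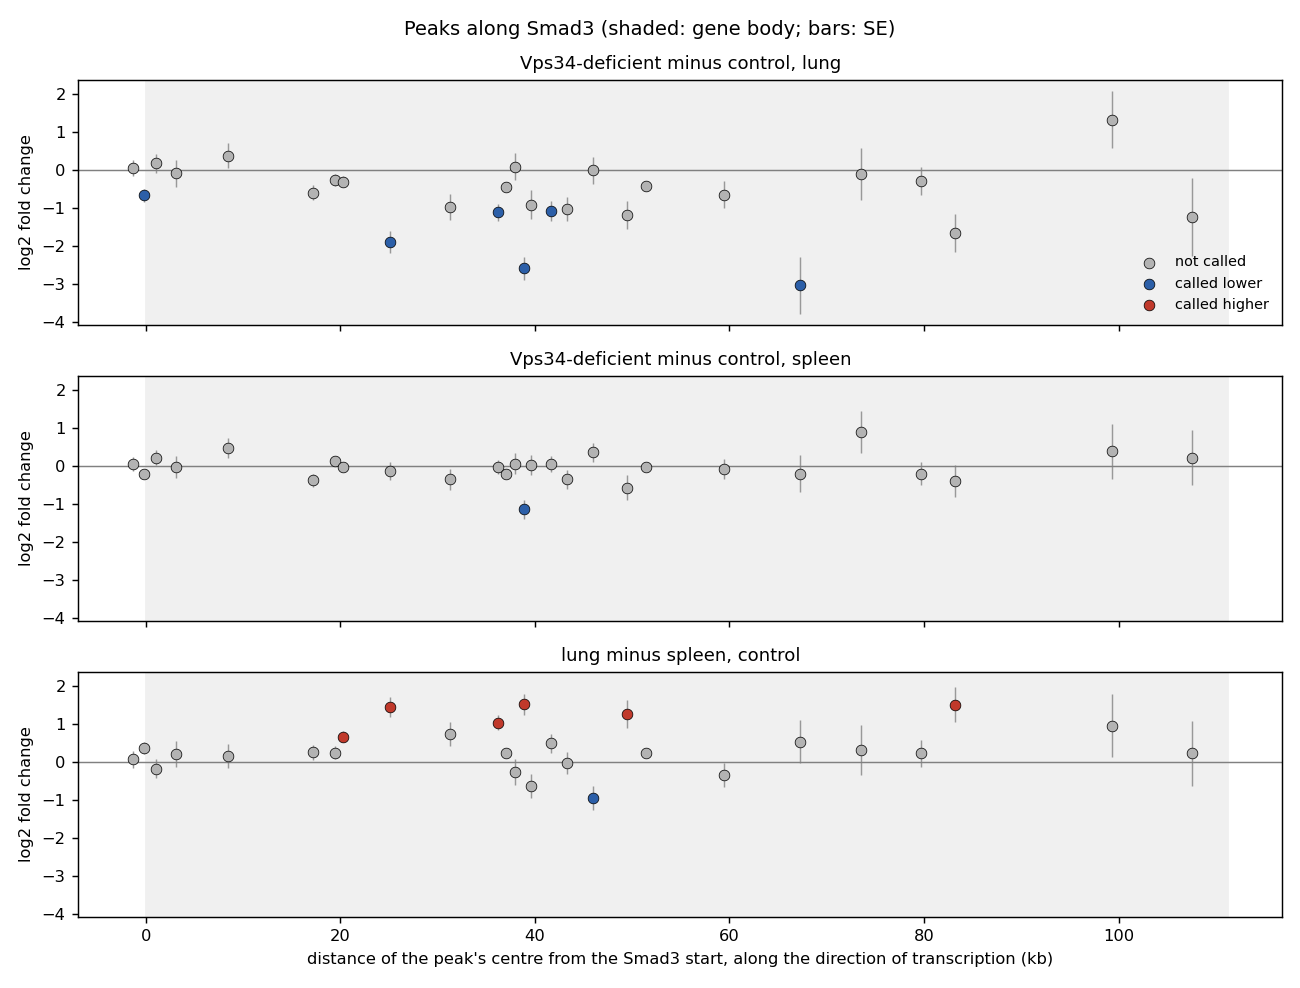
Log2 fold change (points, with SE bars) of the 27 Smad3 peaks by distance from the start of the gene in kb, for Vps34-deficient against control in lung (top) and in spleen (middle) and for lung against spleen in control cells (bottom). The peaks at 25.1, 36.2 and 38.9 kb are called lower in the top panel and higher in the bottom panel, and of the spleen points only the one at 38.9 kb is called.

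Other tissue differences were found at single peaks. The Tgfbr2 intronic peak 17.3 kb into the gene (chr9:116157953-116158162) had 2.32 and 3.03 CPM in spleen control and 8.72 and 5.64 CPM in lung control cells (log2 fold change 1.50 ± 0.29 SE, adjusted p = 0.00109), and was also higher in lung in Vps34-deficient cells, at 4.17, 3.67, 3.43 and 4.59 against 10.1 and 9.53 CPM (log2 fold change 1.36 ± 0.23 SE, adjusted p = 0.000229). The control call was lost on leaving out spleen control 1 (1.20). The peak downstream of Tgfb1 (chr7:25713059-25713268) was higher in lung in both genotypes, with 3.83 and 2.26 CPM in lung control and 6.01 and 5.29 CPM in lung Vps34-deficient cells (log2 fold changes 1.96 and 1.44, adjusted p = 0.0136 and 0.0115). These calls were lost on leaving out spleen control 1 (2.08), spleen control 2 (1.77) or lung control 1 (1.48) in control cells, and on leaving out lung Vps34-deficient 1 (1.40) in Vps34-deficient cells. A Smad3 intronic peak 39.6 kb into the gene (chr9:63718301-63718520), next to the one 38.9 kb in, was lower in lung than spleen in Vps34-deficient cells, at 1.95 and 1.69 against 3.48, 6.61, 6.23 and 6.10 CPM (log2 fold change -1.56 ± 0.32 SE, adjusted p = 0.00161). Its lung mean was 32.5% of the spleen mean in these cells and 60.1% in control cells, so it was lower in lung in both genotypes. The summed Tgfb1 peaks were called lower in lung in Vps34-deficient cells, where 6.95% of all genes were called lower and 11.1% higher (log2 fold change -0.24 ± 0.073 SE, adjusted p = 0.0336), a call lost on leaving out spleen Vps34-deficient 2 (-0.26), spleen Vps34-deficient 3 (-0.23), spleen Vps34-deficient 4 (-0.23) or lung Vps34-deficient 2 (-0.14) and over the gene body only (-0.30).

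Tissue calls were also made at Smad4, Smad7, Ski and Skil. The Smad4 peak 60.5 kb into the gene was higher in lung in Vps34-deficient cells (log2 fold change 0.80, adjusted p = 0.00223), beside 0.14 in control cells (adjusted p = 0.731). The upstream Smad7 peak was higher in lung in control cells (log2 fold change 1.01, adjusted p = 0.0276), a call lost on leaving out spleen control 1 (0.90), spleen control 2 (0.95), spleen Vps34-deficient 2 (0.92) or lung control 2 (0.53). The Ski peak 27.2 kb into the gene was lower in lung in control cells (log2 fold change -0.98, adjusted p = 0.00723). A Ski peak 53.6 kb into the gene (chr4:155168606-155169477) was higher in lung in Vps34-deficient cells, at 38.2 and 33.4 against 22.8, 26.8, 28.2 and 26.0 CPM (log2 fold change 0.52 ± 0.12 SE, adjusted p = 0.0044); it lay just over the fold limit and its call was lost on leaving out spleen Vps34-deficient 1 (0.41), spleen Vps34-deficient 2 (0.48) or lung Vps34-deficient 1 (0.47), with library size alone (0.46) and with a GC offset (0.47). A further 3 of the 18 Ski peaks (16.7%, against 4.72% of all tested peaks) were called lower in lung in Vps34-deficient cells and are named after their values were seen. They were intronic and lay 25.9 kb (chr4:155196544-155196797, log2 fold change -0.82, adjusted p = 0.0243), 14.5 kb (chr4:155207953-155208304, -0.74, adjusted p = 0.0293) and 13.1 kb (chr4:155209089-155209980, -0.61, adjusted p = 0.0170) into the gene. Each of the 3 calls was lost on leaving out either lung Vps34-deficient library, with log2 fold changes of -0.87 to -0.48. The first was also lost on leaving out spleen Vps34-deficient 4 (-0.78), and the second on leaving out spleen Vps34-deficient 4 (-0.73) or spleen control 2 (-0.69). The Skil peak 10.1 kb into the gene (chr3:31104970-31105299) was also higher in lung in Vps34-deficient cells, at 9.26 and 8.26 against 5.56, 4.65, 5.51 and 5.46 CPM (log2 fold change 0.78 ± 0.22 SE, adjusted p = 0.0151), and lost its call on leaving out spleen Vps34-deficient 2 (0.67) or lung Vps34-deficient 1 (0.75).

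Whether the genotype effect differed between lung and spleen was tested as an interaction, and 0 of the 116 peaks passed, as did 0 of all 97109 peaks (0%). At an unadjusted p below 0.05 there were 17 of the 116 (14.7%) and 7060 of all peaks (7.27%), and DESeq2 also called 0 of the 116. Of the 17, 7 were at Smad3. The smallest adjusted p was 0.22, at the Smad3 peak 25.1 kb into the gene (difference of log2 fold changes -1.75 ± 0.37 SE). The Smad3 peaks at 36.2 and 38.9 kb had differences of -1.09 ± 0.28 SE and -1.44 ± 0.40 SE. A difference between the tissues in the effect at Smad3 was thus not shown.

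The wider pathway was described with 53 other genes for ligand activation, receptors, other Smads, regulators and induced targets, which had 464 tested peaks. In lung 10 peaks (2.16%) were called lower and 6 (1.29%) higher, against 3.74% and 1.22% of all tested peaks, and in spleen 1 (0.216%) was lower and 2 (0.431%) were higher, against 1.02% and 0.441%. By list, the regulators had 6 lower and 2 higher of 201 peaks in lung, ligand activation genes 2 and 1 of 102, receptors 0 and 2 of 93, other Smads 1 and 1 of 18, and induced genes 1 and 0 of 50. The smallest p was at a peak of Nedd4l (chr18:65189218-65189566), the gene of a ubiquitin ligase, which fell in both tissues. It had 6.15 and 4.68 CPM in spleen control and 0.835, 0.367, 0.722 and 1.15 CPM in spleen Vps34-deficient cells (log2 fold change -2.83 ± 0.33 SE, adjusted p = 2.42e-05), and 5.74 and 6.92 CPM in lung control and 0.975 and 1.69 CPM in lung Vps34-deficient cells (log2 fold change -2.30 ± 0.42 SE, adjusted p = 0.00156). Nedd4l lies on chromosome 18 as well. A peak of Itgav (chr2:83722903-83723307), the gene of the integrin alpha v chain that activates latent TGF-beta, had 21.2 and 21.6 CPM in lung control and 7.80 and 9.95 CPM in lung Vps34-deficient cells (log2 fold change -1.30 ± 0.20 SE, adjusted p = 0.000273). Lower peaks in lung were also found at Zfyve9 (log2 fold change -1.61), which encodes an adaptor that presents Smads to the receptor, at the inhibitory Smad gene Smad6 (-1.40) and at the corepressor gene Tgif2 (-0.92), while a peak at Acvr1c, a type I receptor gene, was higher (0.73). In spleen, peaks were higher at the co-receptor gene Tgfbr3 (log2 fold change 1.03) and at Ltbp2 (1.12), of the latent TGF-beta binding protein family.

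Motif matches were counted in the 300 bases at the centre of each peak, on both strands. GTCTAGAC was in 0 of the 116 windows (0.28% of all windows), CAGACA in 30.2% (26.2% of all), GGCGCC in 10.3% (7.01%), TGANTCA in 13.8% (13.0%), TGTGGT in 29.3% (26.5%) and GGAAGT in 33.6% (26.9%). Of the 6 Smad3 windows lower in lung, 2 held the AP-1 motif, 2 the Runx motif, 1 CAGACA and 1 GGAAGT. These are matches of letters in a window and do not show binding.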

How the data were processed

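ATAC-seq libraries of sorted Treg cells from spleen and lung were analysed from 1 table of counts per peak. Per the study's methods and the labels, the authors aligned reads with BWA, removed duplicates with Picard, shifted read ends for the Tn5 insertion, kept nucleosome-free fragments, called peaks per sample with MACS2, merged those that recurred among the replicates of a genotype and counted reads with bedtools. The deposited values are raw counts, not normalized. The labels name Picard 1.65, MACS2 2.1.0.20150603 and, for trimming, cutadapt 1.9, where the methods name another Picard version and another trimmer. The methods give the build as mm9 and the spleen groups in reversed number; the labels and the column names were followed, and the build was checked (51.3% of 21951 gene starts lay in a peak on GRCm38). Between 91.5% and 96.5% of counts were even, so both ends of a fragment were mostly counted. Positions were read as starting from 0 and are printed from 1.

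Peaks were tested in R 4.3.3 with edgeR 4.0.16 (filterByExpr, TMM factors, quasi-likelihood test with 4 group means over all 10 libraries, Benjamini-Hochberg adjustment over all 97109 tested peaks), called at an adjusted p below 0.05 and a log2 fold change above 0.5 in size. Gene sums used the same test over 17652 genes without a fold limit. Printed CPM are counts over the column total and are not TMM-scaled. The fit was also run on simulated counts with known changes, but its outcome is not given and no result here rests on it. Alternatives were library size alone, median-of-ratios factors, DESeq2 1.42.0, no and a stricter count filter (mean of 50), halved counts, a GC offset, a chromosome Y covariate, a replicate block, only the 2 groups compared, peaks in the gene body only, no fold limit, and each library left out. Where this left a group with 1 library, that library was assumed to vary like those of the other groups. Agreement between libraries of a group was measured as chi-square per degree of freedom on halved counts. It was 2.69 for the lung control pair and 1.38 to 1.93 for the other pairs. Groups share 1 estimate of spread in the fit, so it may be too small for lung control. Gene models were GENCODE vM21. Named peaks were the promoter peak of each gene, every peak called for genotype, the called peak with the smallest p for each tissue effect and, for genes with no genotype call, the peak with the smallest p in each tissue. Of the other pathway genes, the 8 with the smallest p among called genotype peaks were named. The genes, lists and motifs were chosen with earlier results of these data known. Intervals cover counting error only. Part of the B cell marker list is not reported here.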

Additional observations from a re-analysis of the deposited data

Results flagged for a closer look

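Among 41 values in the spleen Vps34-deficient group (the only group with 4 libraries), 5 had 1 library apart from the other 3, with a gap to its nearest neighbour above the 95% critical value of Dixon's test. Chance gives this in about 1 in 20 values. The Tgfb1 peak at 25688784 had 42.1 CPM in replicate 2 and 46.3 to 47.2 CPM in the others (gap of 0.833 of the group's range). The Smad3 peak at 63718301 had 3.48 CPM in replicate 1 against 6.10 to 6.61 CPM (0.839). The Smad7 peak at 75363827 was highest in replicate 4, at 4.16 CPM against 2.69 to 2.89 CPM (0.866). The Skil peak at 31104970 had 4.65 CPM in replicate 2 against 5.45 to 5.56 CPM (0.881). The summed Smad2 peaks had 133 CPM in replicate 4 against 144 to 145 CPM (0.908). Replicates 2 and 4 each stood apart at 2 of these values and replicate 1 at 1. The test of the difference between the genotype effects in the 2 tissues called no peak of the 9 genes.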

How the results depend on the processing

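The number of peaks at the 9 genes called for genotype in spleen was 2. It became 0 with the replicate number as a block, 4 in a fit of only the 2 groups compared, and 0 to 3 on leaving out each library in turn. In lung the number was 12, which became 8 with the block, 5 in a fit of only the 2 groups compared and 3 to 18 on leaving out each library. For the tissue effect, 17 peaks in control cells became 10 with the block, 10 with only the 2 groups compared and 4 to 17 on leaving out each library, and 18 in Vps34-deficient cells became 7 with the block and 6 to 22. The 2 gene sums called for genotype in lung became 1 with the block, 0 with only the 2 groups compared and 0 to 2 on leaving out each library. The 1 gene sum called for tissue in control cells ranged from 0 to 1 on leaving out libraries. The 1 called in Vps34-deficient cells became 0 with the block, 0 over the gene body only and 0 to 1 on leaving out libraries. These counts stayed within 1.5 times of the reported ones under the other alternatives. With the block, the genotype calls lost were those of Smad3 at 63718880 (-1.39) and Tgfbr2 at 116152778 (0.62) in spleen, and in lung those of Smad3 at 63757813 (-0.64) and 63690583 (-2.99), Tgfbr2 at 116163874 (0.80), Ski at 155195242 (0.98) and the Smad4 sum (0.36). It also ended the tissue calls in Vps34-deficient cells of Tgfb1 at 25713059 (1.12), Skil at 31104970 (0.82), Ski at 155196544 (-0.73), 155207953 (-0.77) and 155209089 (-0.66) and the Tgfb1 sum (-0.21), and in control cells that of Smad7 at 75363827 (0.95). Same-numbered libraries share only a number: their deviations correlated between -0.098 and 0.064.

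Over 70 values of single peaks, 1074 of 1190 alternative values kept direction and side of the threshold, 76 lost and 4 gained a call and 36 changed sign. Over 20 gene sums, 270 of 300 kept both, 18 lost a call and 12 changed sign. The values that changed sign were uncalled (log2 fold changes below). In spleen, the Tgfb1 peak at 25686715 was -0.05 with the block, -0.01 with only the 2 groups compared, -0.0017 with halved counts and -0.15 to 0.12 on leaving out each library. The Smad3 peak at 63716170 was -0.09 with the block and -0.10 to 0.11 on leaving out libraries. The Ski sum was -0.01 with the block and -0.03 to 0.08. The Smad7 sum in lung was 0.02 over the gene body only and -0.08 to 0.05. The others changed sign only on leaving out a library. In spleen these were the peaks of Tgfb1 at 25688784 (-0.01 to 0.18), Smad3 at 63690583 (-0.58 to 0.16), 63721569 (-0.15 to 0.01) and 63732725 (-0.35 to 0.01) and Smad4 at 73702663 (-0.07 to 0.06), and the sums of Tgfbr1 (-0.09 to 0.01) and Smad2 (-0.13 to 0.0020). In lung they were the peaks of Tgfb1 at 25688784 (-0.53 to 0.09), Tgfbr1 at 47352828 (-0.11 to 0.14), Smad2 at 76241072 (-0.07 to 0.08), Ski at 155222947 (-0.12 to 0.13) and Skil at 31093658 (-0.05 to 0.06), and the sums of Tgfb1 (-0.19 to 0.0025), Tgfbr1 (-0.08 to 0.09) and Smad2 (-0.03 to 0.09). The cause was not tested. With 2 libraries in each lung group, a change that was not called is not shown to be absent.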
